A study of Mus musculus with 4 samples.

Results

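Cholesterol is built from acetyl-CoA through mevalonate, isoprenoids, squalene and lanosterol, and cells balance this synthesis against uptake of lipoprotein cholesterol. The balance is set by SREBP transcription factors, which the escort protein SCAP carries out of the endoplasmic reticulum when sterol is scarce and which INSIG proteins hold back when it is plentiful. Macrophages take up cholesterol with lipoproteins and dying cells, release it in lysosomes with the NPC proteins, and store the excess as cholesteryl ester made by the enzyme that Soat1 encodes. The genes described here are 28 members of this system, taken by symbol from a list of cholesterol synthesis, transport and SREBP genes. All 28 were found among the 39179 gene identifiers of the files: 18 synthesis enzymes, 5 genes of SREBP control and 5 genes of sterol transport, storage and uptake control.

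RNA was counted in cells sorted from subcutaneous tumours of FVB mice, grown from MycCaP-BMP4 cells or from MycCaP cells, with 2 libraries in each group. MycCaP is a mouse prostate cancer line with a MYC transgene, and both groups carry it; MycCaP-BMP4 cells also overexpress BMP4, a secreted bone morphogenetic protein. Tumour-associated macrophages (TAMs) were sorted as CD45+, CD11b+, GR1- and F4/80+ cells, although F4/80 stands in the titles of the MycCaP-BMP4 samples and not in those of the MycCaP samples. The sources used here do not give the promoter that drives BMP4, whether the lines are clones, the age of the mice, or whether animals were pooled. Nothing says that the libraries of a group came from separate mice, and the p-values measure only the spread among them, which could be technical. Values are given for replicate 1 and then replicate 2 of each group.

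Gene counts ran from 23058263 to 24967143 per library. Levels are counts per 1000000 scaled by TMM (CPM), a method that levels most genes between libraries, and a count of 3, taken as the detection floor, equals 0.120 to 0.130 before that scaling (counting error only). The MycCaP-BMP4 libraries differed from each other more than the MycCaP libraries did: log2 CPM correlated across genes with r = 0.931 in the MycCaP-BMP4 pair and 0.977 in the MycCaP pair. All 15 pan-macrophage genes were detected, but their summed level was 7207 and 27210 CPM in MycCaP-BMP4 TAMs, against 37210 and 32890 CPM in MycCaP TAMs. In both MycCaP-BMP4 libraries 13 of the 15 were lower than in either MycCaP library, where 29.7% of the 14075 genes tested were. Tumour epithelium genes summed to 1252 and 500.8 CPM in MycCaP-BMP4 TAMs, against 244 and 275.7 CPM in MycCaP TAMs. Of 10 tested 8 separated upwards in MycCaP-BMP4 TAMs and 1 downwards, where 28.9% and 29.7% of all genes tested did. Krt5 of that list had no count in any library. Reads outside genes made up 6.01% and 6.03% of the MycCaP-BMP4 libraries, against 3.98% and 3.37% of the MycCaP libraries, and reads aligned to several places 10.6% and 9.35%, against 8.01% and 8.49%. The marker levels and the share aligned to several places move with several results below, most of all in MycCaP-BMP4 replicate 1. The share outside genes was nearly equal in both MycCaP-BMP4 libraries. The part of these shares and marker levels in those results was not tested. In bulk RNA, fewer cells of a type and less of its RNA per cell cannot be told apart.

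The comparison of MycCaP-BMP4 with MycCaP TAMs asks how the macrophages of a tumour differ when its cells make BMP4. The 28 sterol genes were split: in 7 of them both MycCaP-BMP4 libraries lay above both MycCaP libraries (28.9% of the 14075 genes tested did so), in 9 both lay below (29.7% of genes tested), and 12 overlapped. Scaled on pan-macrophage genes instead of by TMM, 24 members lay above (69.7% of genes tested) and 0 below (3.86% of genes tested). The median log2 fold change of the 28 was 0.07, beside -0.03 for all genes tested, and it turned to -0.05 without MycCaP-BMP4 replicate 1 and to -0.02 without MycCaP replicate 2. The share that separated was near that of other genes. One member, the squalene epoxidase gene Sqle, had a log2 fold change above 1 (14% of genes tested did), and 0 of 28 had one below -1 (11.4% of genes tested did).

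All 28 members passed the filter on low counts, and the lowest count of any in a library was 99. Fold changes are MycCaP-BMP4 over MycCaP. By edgeR's quasi-likelihood test with Benjamini-Hochberg adjustment 0 of 28 passed the 0.05 threshold, as did 0% of all genes. At an unadjusted p under 0.05 there were 2 members, Sqle and Sc5d, where 19% of all genes tested had such a p. DESeq2 called 1 member, Sqle, and 9.84% of genes tested. limma-voom called 0 members. An exact permutation test of 1 gene over 2 against 2 libraries cannot give a p below 0.333.

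**Figure D1:**
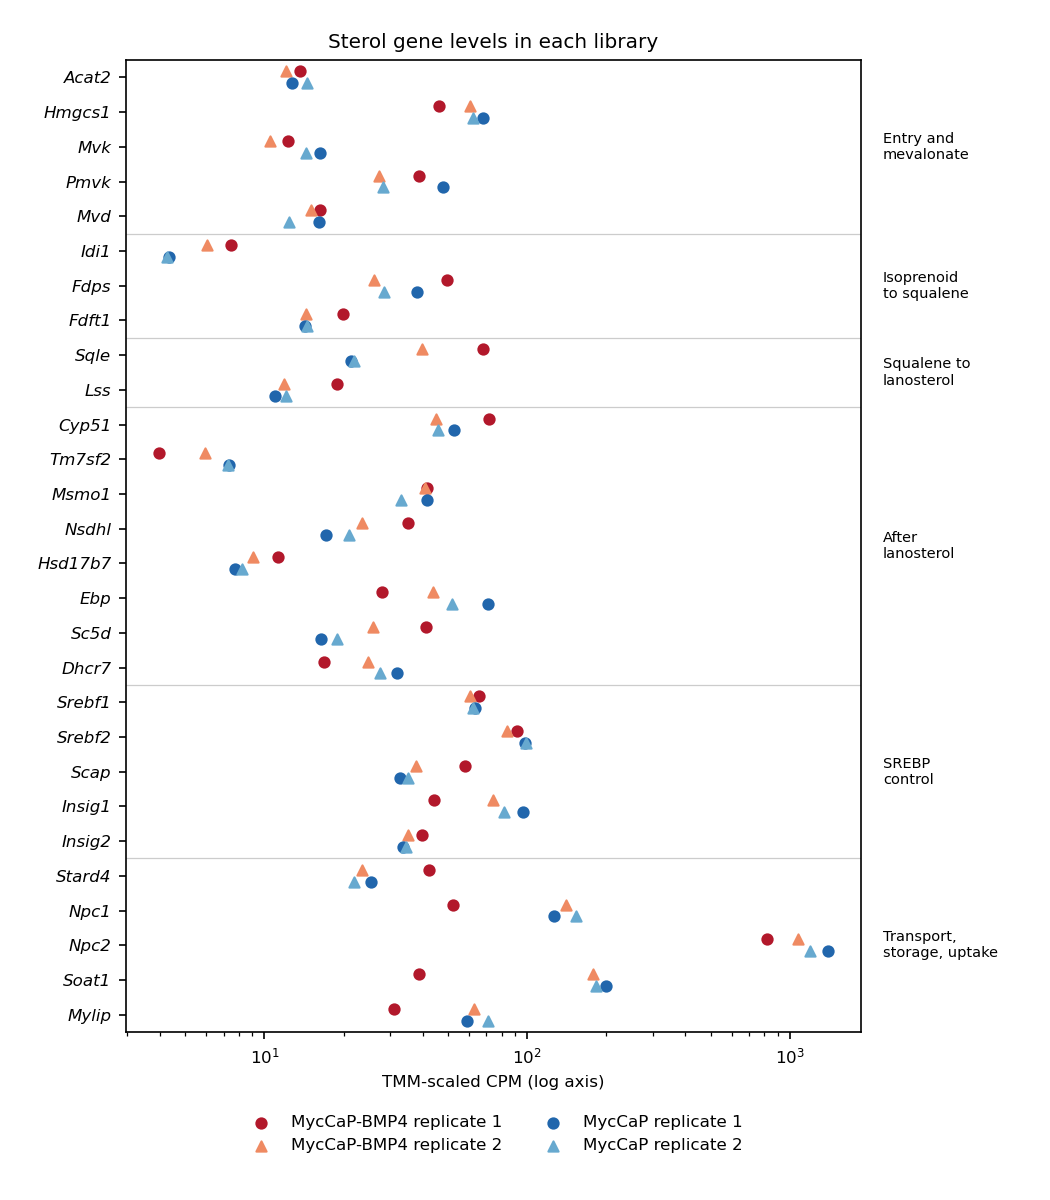
TMM-scaled CPM of the 28 sterol genes on a log axis, ordered by role, with 1 point for each library (red shades for MycCaP-BMP4, blue shades for MycCaP). Sqle lies at 67.8 and 39.6 CPM in MycCaP-BMP4 TAMs, against 21.4 and 21.95 CPM in MycCaP TAMs, and Soat1 at 38.7 CPM in MycCaP-BMP4 replicate 1 stands apart from the 3 other libraries.

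SREBP proteins bind sterol regulatory elements in promoters, usually beside a CCAAT box bound by NF-Y. Promoter windows of 300 bases (250 before and 50 after the annotated start, RefSeq, GRCm38.p6) were found for 23 of the 28 genes, in 31 windows. Fdps, Fdft1, Sqle, Stard4 and Npc1 were not searched. The letters TCACNCCA, a core of the SREBP element, were searched on both strands and were present for 3 of the 23 genes (13%), against 4.59% of the 10314 tested genes with a window. The letters CCAAT on either strand were present for 21 of the 23 genes (91.3%), against 42.6% of tested genes with a window. Matches of the 2 motifs may share letters, which they did not in the 3 genes shown. A match describes letters and not a bound site. The 250 bases upstream of the start are shown for the 3 genes that hold the SREBP letters, 5′ to 3′ on the gene's strand. They show how the element lies to the NF-Y boxes in the members that have both. Capitals mark both motifs, on either strand.
Hmgcs1 (chr13:119690101-119690350, plus strand): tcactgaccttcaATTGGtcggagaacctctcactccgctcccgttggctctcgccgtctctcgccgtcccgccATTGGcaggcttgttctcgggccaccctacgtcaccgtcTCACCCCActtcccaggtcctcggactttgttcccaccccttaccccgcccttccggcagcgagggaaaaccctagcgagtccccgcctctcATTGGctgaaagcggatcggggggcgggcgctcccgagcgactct
Srebf2 (chr15:82147019-82147268, plus strand): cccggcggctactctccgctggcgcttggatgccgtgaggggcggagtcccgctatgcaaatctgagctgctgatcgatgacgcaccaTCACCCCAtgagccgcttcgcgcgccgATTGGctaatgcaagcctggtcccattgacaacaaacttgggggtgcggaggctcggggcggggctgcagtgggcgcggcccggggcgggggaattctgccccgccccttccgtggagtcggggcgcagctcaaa
Msmo1 (chr8:64733579-64733828, minus strand): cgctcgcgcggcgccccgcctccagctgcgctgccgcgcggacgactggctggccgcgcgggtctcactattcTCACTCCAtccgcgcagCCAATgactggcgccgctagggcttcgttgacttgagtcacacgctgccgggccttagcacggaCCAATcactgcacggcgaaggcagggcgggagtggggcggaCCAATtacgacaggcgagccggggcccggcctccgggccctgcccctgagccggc

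The element of Hmgcs1 starts at position -137 from the start site, with CCAAT boxes on either side of it at -176 and -45. That of Srebf2 starts at -162 with a box at -135, and that of Msmo1, which reads TCACTCCA, at -177 with a box at -160. The 3 genes with the element had log2 fold changes of -0.29 ± 0.26, -0.17 ± 0.24 and 0.14 ± 0.25 (SE). Sc5d, with a log2 fold change of 0.92, held 1 CCAAT box at -24, and Ebp, with -0.77, held boxes at -170 and -55. As the map of motif positions shows, 21 of the 23 genes held an NF-Y box. Boxes in genes on both sides of 0 were therefore bound to be found and say nothing about direction. Of the 23 genes, Acat2 and Scap held none in these windows.

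**Figure D2:**
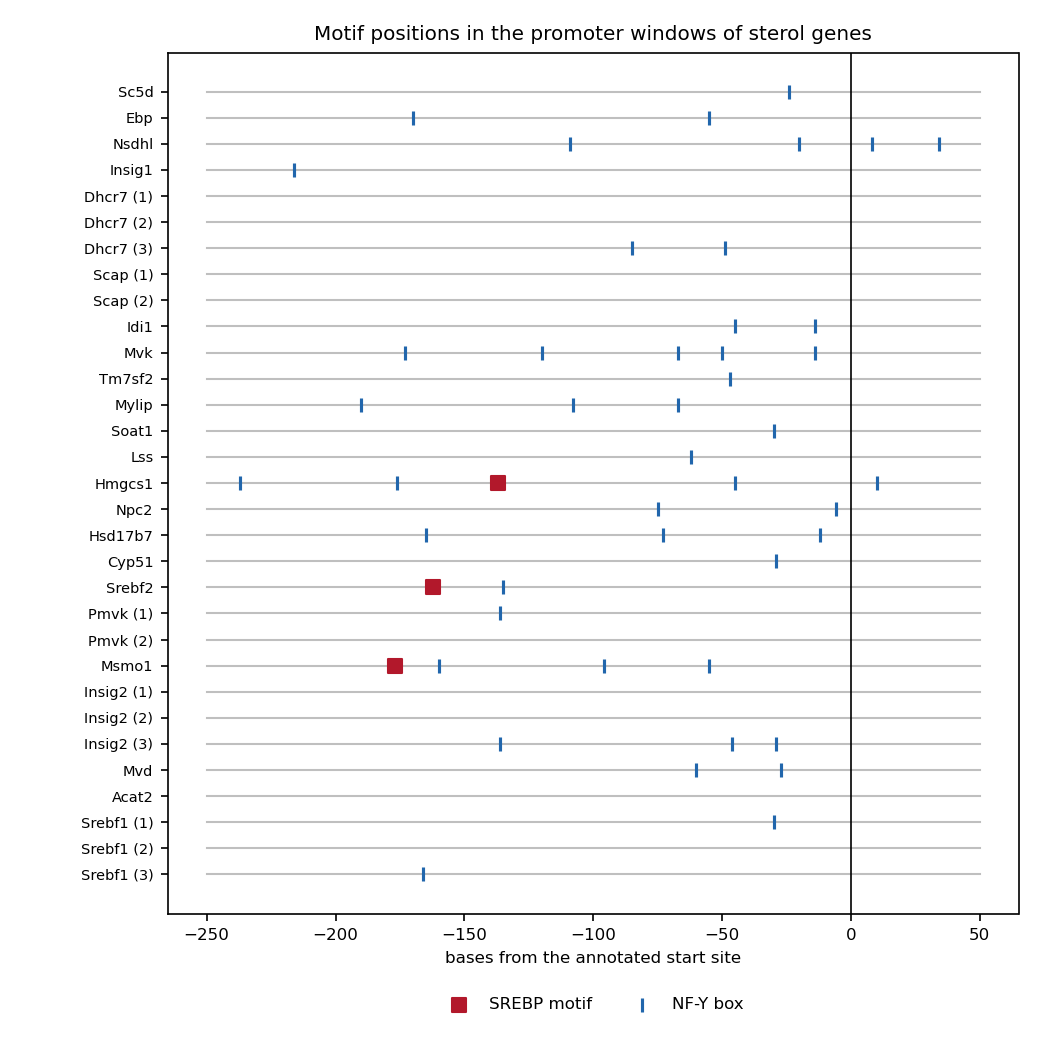
Positions of the SREBP motif (TCACNCCA, red squares) and the NF-Y box (CCAAT, blue bars) in 31 promoter windows of 23 sterol genes, in bases from the annotated start site, ordered by the p of the gene. The SREBP motif lies at -137, -162 and -177 in Hmgcs1, Srebf2 and Msmo1, and 22 of the 31 windows hold an NF-Y box.

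The first steps make mevalonate and turn it into an isoprenoid unit. Of the 5 genes of these steps 0 lay higher (28.9% of all genes tested) and 2 lay lower (29.7%) in both MycCaP-BMP4 libraries under TMM. All 5 fold changes were positive when scaled on pan-macrophage genes. Hmgcs1, which encodes the cytosolic HMG-CoA synthase, had 46.1 and 60.4 CPM in MycCaP-BMP4 TAMs, against 67.9 and 62.1 CPM in MycCaP TAMs. The groups did not overlap, but replicate 2 of MycCaP-BMP4 lay just under the MycCaP libraries. Mvk, the mevalonate kinase gene, had 12.2 and 10.5 CPM in MycCaP-BMP4 TAMs, against 16.2 and 14.4 CPM in MycCaP TAMs, a log2 fold change of -0.43 ± 0.31 (SE). Of the 5 enzyme genes with separated lower values, it was the one whose lowest library was MycCaP-BMP4 replicate 2. Acat2 (a thiolase gene), Pmvk and Mvd overlapped between groups, with log2 fold changes of -0.09, -0.21 and 0.13. Summed over the 5 genes the level was 126.8 and 125.2 CPM in MycCaP-BMP4 TAMs, against 161.1 and 131.8 CPM in MycCaP TAMs.

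The next genes join isoprenoid units into squalene. Idi1, the isomerase that makes the reactive isoprenoid, was higher in both MycCaP-BMP4 libraries, at 7.46 and 6.02 CPM, against 4.33 and 4.26 CPM in MycCaP TAMs. Its log2 fold change was 0.65 ± 0.41 (SE). It had the lowest count of any member, 99 in MycCaP replicate 1. Fdps, the farnesyl diphosphate synthase gene, and Fdft1, the squalene synthase gene, overlapped, with log2 fold changes of 0.19 and 0.25. Both stood highest in MycCaP-BMP4 replicate 1, at 49.5 and 19.8 CPM.

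Squalene epoxidase commits squalene to sterols and is a control point of flux through the pathway. Sqle (chromosome 15, 59315077 to 59331192 on GRCm38) had 67.8 and 39.6 CPM in MycCaP-BMP4 TAMs, against 21.4 and 21.95 CPM in MycCaP TAMs. The means were 53.7 ± 19.9 CPM in MycCaP-BMP4 TAMs and 21.7 ± 0.397 CPM in MycCaP TAMs (SD, n = 2 each). Both MycCaP-BMP4 libraries lay above both MycCaP libraries, which were nearly equal to each other. The log2 fold change of 1.31 ± 0.33 (SE) did not pass edgeR's quasi-likelihood test (adjusted p = 0.155) and passed DESeq2 (adjusted p = 0.0267). With MycCaP-BMP4 replicate 1 left out the log2 fold change was 0.87 (edgeR adjusted p = 0.0406, where 7.12% of genes were called), and with replicate 2 left out it was 1.67 (edgeR adjusted p = 0.000314, where 38.7% were). With no filter on low counts, where 5.07% of genes were called, the edgeR adjusted p was 0.0354. Over the alternatives that left no library out the adjusted p ran from 0.0267 (DESeq2) to 0.274 (edgeR with a replicate block). With a MycCaP library left out the log2 fold change was 1.28 (replicate 1) or 1.32 (replicate 2), and Sqle was not called in either fit. Lss, the next enzyme, which closes the rings to give lanosterol, had 18.9 and 11.8 CPM in MycCaP-BMP4 TAMs, against 10.98 and 12.1 CPM in MycCaP TAMs. Its groups overlapped.

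The 8 genes that turn lanosterol into cholesterol split evenly under TMM: 3 lay higher in both MycCaP-BMP4 libraries, 3 lay lower and 2 overlapped, where 28.9% and 29.7% of all genes tested lay higher and lower. Scaled on pan-macrophage genes all 8 fold changes were positive. Sc5d, a sterol desaturase gene late in the pathway (chromosome 9, 42251595 to 42264256), was the second member by p. It had 41.1 and 25.96 CPM in MycCaP-BMP4 TAMs, against 16.4 and 19.0 CPM in MycCaP TAMs, a log2 fold change of 0.92 ± 0.32 (SE) with an unadjusted p of 0.0311 and an edgeR adjusted p of 0.226. Nsdhl, which removes methyl groups from the sterol rings, had 35.2 and 23.5 CPM in MycCaP-BMP4 TAMs, against 17.2 and 20.9 CPM in MycCaP TAMs. Its partner reductase gene Hsd17b7 had 11.3 and 9.05 CPM in MycCaP-BMP4 TAMs, against 7.74 and 8.23 CPM in MycCaP TAMs. In each of these 3 genes replicate 1 of MycCaP-BMP4 was the highest library and replicate 2 the next.

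On the other side of 0 stood Ebp, Dhcr7 and Tm7sf2. Ebp, the sterol isomerase gene directly before Sc5d in the pathway (chromosome X, 8185329 to 8193512), had 27.9 and 44.0 CPM in MycCaP-BMP4 TAMs, against 70.9 and 51.6 CPM in MycCaP TAMs. The log2 fold change was -0.77 ± 0.33 (SE), with an edgeR adjusted p of 0.285. Dhcr7, the reductase gene of the last step of one branch, had 16.9 and 24.8 CPM in MycCaP-BMP4 TAMs, against 31.9 and 27.6 CPM in MycCaP TAMs. Tm7sf2, another sterol reductase gene, had 3.98 and 5.93 CPM in MycCaP-BMP4 TAMs, against 7.31 and 7.26 CPM in MycCaP TAMs. Replicate 1 of MycCaP-BMP4 was the lowest library for all 3 genes. Cyp51, the lanosterol demethylase gene, and Msmo1, a methylsterol oxidase gene, overlapped, with log2 fold changes of 0.25 and 0.14.

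Shares of counts within a library do not depend on how libraries are scaled to each other. Sqle made up 12.6% of the counts of the 18 synthesis enzymes in MycCaP-BMP4 replicate 1 (95% Wilson interval 12.04% to 13.1%) and 8.96% in replicate 2 (8.42% to 9.53%). In MycCaP TAMs it made up 4.32% (3.96% to 4.71%) and 5.15% (4.73% to 5.60%). Sc5d made up 7.61% and 5.87% of the enzyme counts in MycCaP-BMP4 TAMs, against 3.31% and 4.45% in MycCaP TAMs. Ebp made up 5.17% and 9.94% in MycCaP-BMP4 TAMs, against 14.3% and 12.1% in MycCaP TAMs. The groups did not overlap for any of these 3 shares, and shares are the same under every scaling. Sqle, Sc5d and Ebp had the smallest p of the 18 enzymes and already separated in CPM under TMM, so their separated shares add no independent support. The share of Hmgcs1 was 8.53% and 13.65% in MycCaP-BMP4 TAMs, against 13.7% and 14.56% in MycCaP TAMs, so replicate 2 of MycCaP-BMP4 almost met the MycCaP libraries. The intervals cover counting error only, and the gap between the MycCaP-BMP4 replicates exceeded them for Sqle, Sc5d and Ebp. The summed level of the 18 enzymes overlapped, at 539.7 and 442.3 CPM in MycCaP-BMP4 TAMs, against 495.7 and 426.4 CPM in MycCaP TAMs.

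**Figure D3:**
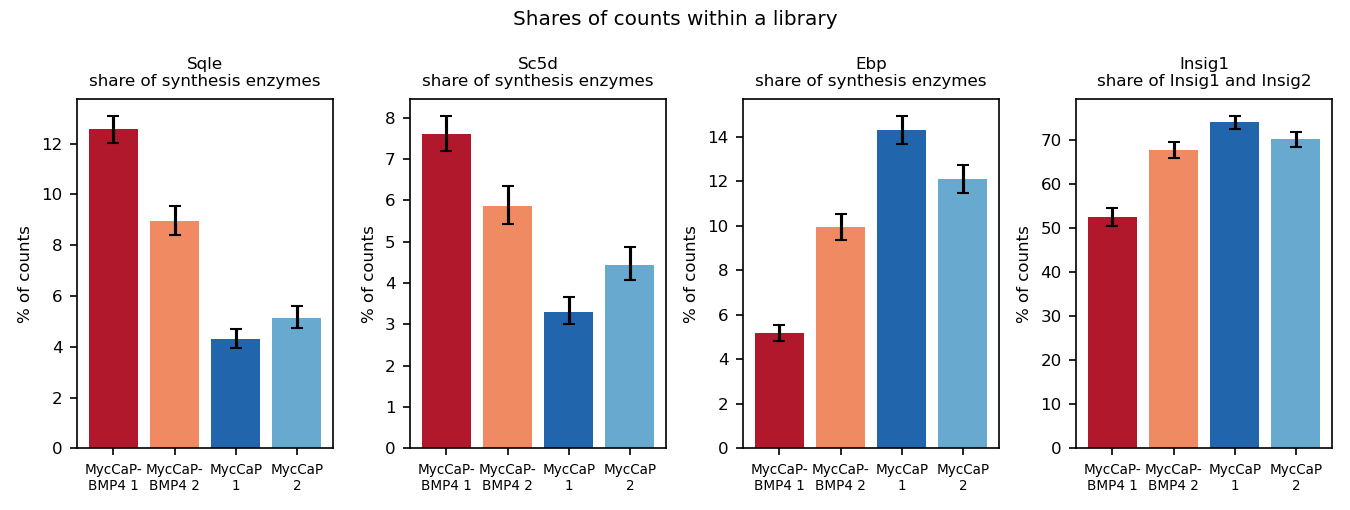
Bars give the share, in percent, of a library's synthesis enzyme counts held by Sqle, Sc5d and Ebp, and of its Insig1 and Insig2 counts held by Insig1, with 95% Wilson intervals (counting error only). Sqle and Sc5d take larger and Ebp and Insig1 smaller shares in each MycCaP-BMP4 library than in either MycCaP library.

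The SREBP control genes were compared next. The transcripts of the 2 transcription factors were close to level: Srebf2, whose product drives cholesterol genes, had 91.5 and 84.0 CPM in MycCaP-BMP4 TAMs, against 97.95 and 99.4 CPM in MycCaP TAMs. That difference, -0.17 ± 0.24 (SE) in log2, was smaller than its error although the groups did not overlap, and it became 0.0056 on library size alone and 1.57 when scaled on pan-macrophage genes. Srebf1, whose products act more on fatty acid genes, had 65.8 and 60.7 CPM in MycCaP-BMP4 TAMs, against 63.2 and 62.4 CPM in MycCaP TAMs, a log2 fold change of 0.01 ± 0.23 (SE). Scap, the escort gene, had 57.8 and 37.8 CPM in MycCaP-BMP4 TAMs, against 32.9 and 35.2 CPM in MycCaP TAMs. Here replicate 1 of MycCaP-BMP4 was far above the others and replicate 2 just above them.

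The INSIG genes, whose proteins anchor SCAP in the endoplasmic reticulum, lay on opposite sides of 0 under TMM (0.89 for Insig1 and 1.89 for Insig2 when scaled on pan-macrophage genes). Insig1, itself an SREBP target (chromosome 5, 28071363 to 28078662), had 44.2 and 74.0 CPM in MycCaP-BMP4 TAMs, against 96.0 and 81.7 CPM in MycCaP TAMs, a log2 fold change of -0.59 ± 0.33 (SE) with an edgeR adjusted p of 0.376. Insig2, which is less dependent on SREBP, had 39.9 and 35.1 CPM in MycCaP-BMP4 TAMs, against 33.6 and 34.7 CPM in MycCaP TAMs, a log2 fold change of 0.14 ± 0.24 (SE). Insig1 thus held 52.5% and 67.9% of the counts of the pair in MycCaP-BMP4 TAMs (95% Wilson intervals 50.5% to 54.6% and 66.0% to 69.7%), against 74.1% and 70.2% in MycCaP TAMs (72.5% to 75.6% and 68.5% to 71.9%). The intervals of MycCaP-BMP4 replicate 2 and MycCaP replicate 2 met. They cover counting error only, and the difference between those libraries was not tested. Under TMM, Hmgcs1 and Insig1, both textbook SREBP2 targets, were lower in both MycCaP-BMP4 libraries, while Sqle and Idi1, also such targets, were higher in both. Of all genes tested 29.7% were lower and 28.9% higher in both, and 12 of the 28 members overlapped, the SREBP target Stard4 among them. Scaled on pan-macrophage genes, Hmgcs1 and Insig1 turned to 1.30 and 0.89, and each lay higher in both MycCaP-BMP4 libraries.

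Of the 5 genes of transport, storage and uptake control, Soat1, Npc1, Mylip and Stard4 differed more between the MycCaP-BMP4 replicates than between the group means in CPM, and Npc2 did not. Scaled on pan-macrophage genes, all 5 fold changes were positive. Soat1, which esterifies cholesterol for storage (chromosome 1, 156424525 to 156474331), had 38.7 and 177.4 CPM in MycCaP-BMP4 TAMs, against 200.3 and 183.3 CPM in MycCaP TAMs. The mean of 108.1 ± 98.1 CPM in MycCaP-BMP4 TAMs and of 191.8 ± 12.02 CPM in MycCaP TAMs (SD, n = 2 each) differed by less than the spread of the MycCaP-BMP4 group. The log2 fold change was -0.83 ± 0.68 (SE), -0.11 without MycCaP-BMP4 replicate 1 and -2.28 without replicate 2. Each fit with a replicate left out rests on a lone MycCaP-BMP4 library. Npc2, a soluble lysosomal cholesterol carrier, had 820 and 1073 CPM in MycCaP-BMP4 TAMs, against 1391 and 1194 CPM in MycCaP TAMs. It was lower in both MycCaP-BMP4 libraries under TMM, with a log2 fold change of -0.45 ± 0.40 (SE), and higher in both when scaled on pan-macrophage genes, with 1.14.

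Npc1, the membrane partner of Npc2, had 52.1 CPM in MycCaP-BMP4 replicate 1 while the 3 other libraries lay between 126.6 and 153.7 CPM. Mylip, the gene of a ubiquitin ligase that removes lipoprotein receptors and answers to LXR, had 31.2 CPM in that library while the others lay between 59.0 and 71.0 CPM. Stard4, a cytosolic sterol carrier and SREBP target, had 42.2 CPM there, against 21.95 to 25.4 CPM in the others. In MycCaP-BMP4 replicate 2 these 3 genes lay inside the MycCaP range. As log2 differences from the MycCaP mean, the 5 genes had a median of -1.04 in the first MycCaP-BMP4 library and -0.04 in the second, and the pan-macrophage list had -2.35 and -0.44. The part of the macrophage share in these values was not tested.

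Of the 16 members whose groups did not overlap, Soat1 and Npc2 included, 14 lay farther from the MycCaP mean in MycCaP-BMP4 replicate 1 than in replicate 2 (87.5%), near the 81.7% of the 8258 such genes among all tested. Mvk and Srebf2 lay farther in replicate 2. The absolute log2 difference between the MycCaP-BMP4 replicates had a median of 0.53 over the 28 members, against 0.19 between the MycCaP replicates, and 0.50 against 0.23 over all genes tested. Among the 18 enzymes, 14 were higher in MycCaP-BMP4 replicate 1 than in replicate 2, where 50.9% of all genes were. As log2 differences from the MycCaP mean the enzymes had a median of 0.32 in the first MycCaP-BMP4 library and -0.05 in the second, and the tumour epithelium list stood at 2.09 and 0.89. Whether tumour RNA has a part in the enzyme values was not tested. When MycCaP-BMP4 replicate 2 was left out, edgeR called 11 members, 5 higher (Sqle, Sc5d, Nsdhl, Scap, Stard4) and 6 lower (Soat1, Npc1, Insig1, Mylip, Ebp, Dhcr7), where 38.7% of all genes were called. Such a fit has a lone MycCaP-BMP4 library and takes its spread from the MycCaP pair.

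**Figure D4:**
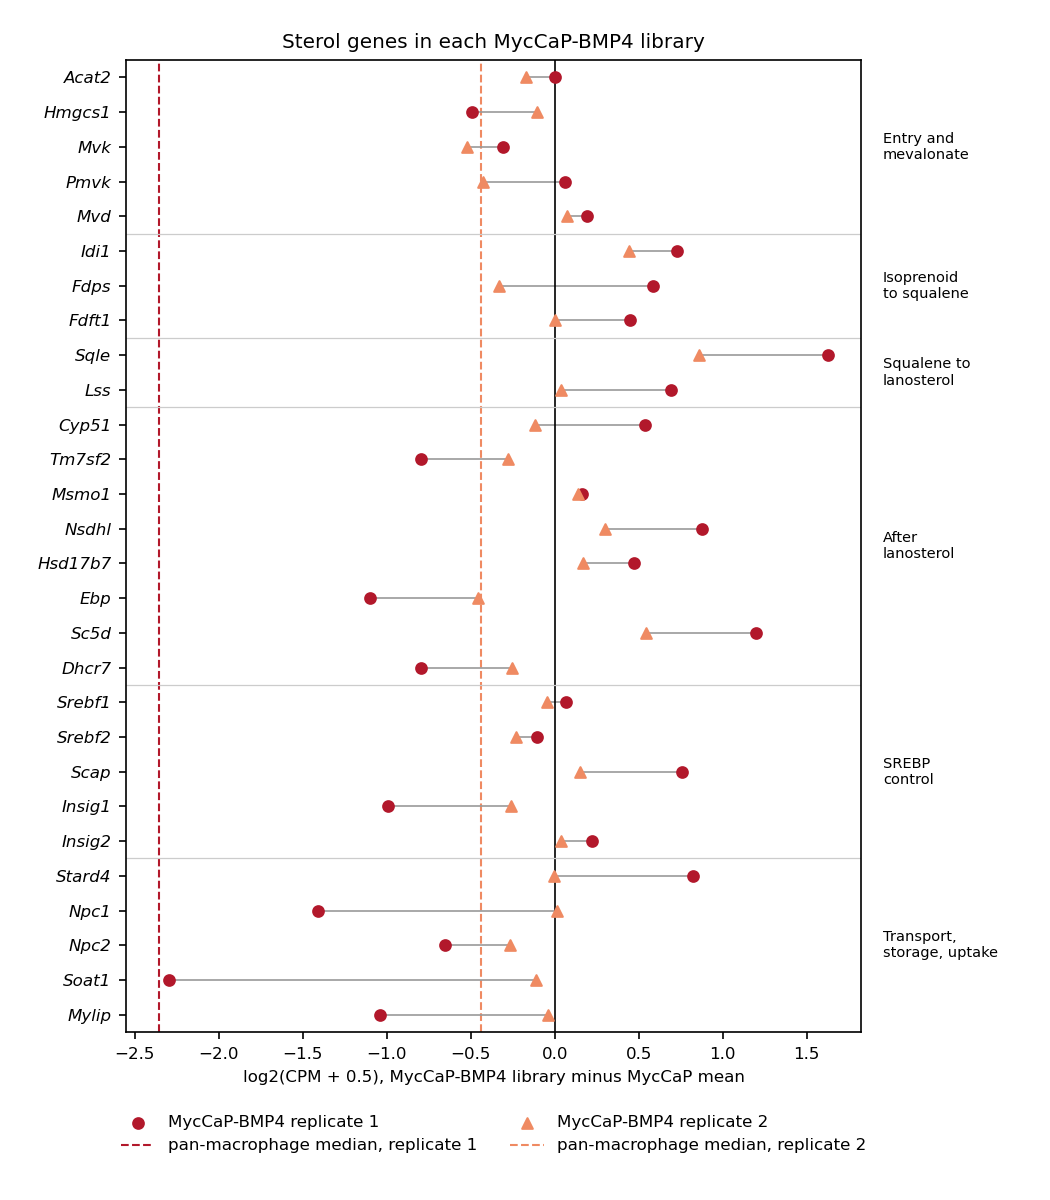
Log2(CPM + 0.5) of each sterol gene in each MycCaP-BMP4 library minus the MycCaP mean under TMM scaling, joined by a line, with dashed lines at the pan-macrophage medians of -2.35 (replicate 1) and -0.44 (replicate 2). Soat1 comes close to the pan-macrophage median in replicate 1, Sqle lies highest in both, and all 28 members lie above 0 in the fitted fold change when libraries are scaled on the pan-macrophage genes.

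The direction of the set depends on what the libraries are scaled on. When the 15 pan-macrophage genes were held level in place of all genes, all 28 members had positive log2 fold changes and 24 were higher in both MycCaP-BMP4 libraries. The median of the members was then 1.81, beside 1.66 for all genes tested. Relative to the macrophage markers the median sterol gene was thus higher by about as much as the median gene. Sqle, at 3.22, was the highest of the 28 fold changes and Soat1, at 0.20, the lowest, as under TMM.

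Levels can be compared between genes per kilobase of merged exons (CPM per kb, GENCODE M21). Npc2 had the highest level of the 28, at 150.8 and 197.3 CPM per kb in MycCaP-BMP4 TAMs, against 255.8 and 219.5 CPM per kb in MycCaP TAMs. Insig1 followed with 14.3 and 23.9 CPM per kb in MycCaP-BMP4 TAMs, against 31.1 and 26.4 CPM per kb in MycCaP TAMs. It overlapped in level with Ebp and Pmvk, the next in order. Sqle came close to Ebp in MycCaP-BMP4 replicate 1 only, at 12.2 CPM per kb beside 12.1 for Ebp. In MycCaP-BMP4 replicate 2 Sqle had 7.1 CPM per kb and Ebp 19.0. In MycCaP TAMs Sqle had 3.86 and 3.96 CPM per kb, against 30.7 and 22.3 for Ebp. The lowest levels were those of Lss, Tm7sf2 and Idi1, with means over the 4 libraries of 1.25, 1.39 and 1.58 CPM per kb. Exons of 6 members (Fdft1, Lss, Cyp51, Srebf1, Scap and Npc1) overlap a gene on the opposite strand, and those of Tm7sf2 and Srebf1 one on the same strand, so their counts are less certain.

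Other branches of sterol and lipid metabolism were read beside the members. SREBP targets of fatty acid synthesis had 6 of 15 tested genes higher (28.9% of all genes tested) and 1 lower (29.7%) in each MycCaP-BMP4 library than in either MycCaP library. Their median log2 fold change was 0.47 (2.22 scaled on pan-macrophage genes), and 0 passed the edgeR test, with 4 at an unadjusted p under 0.05 where 19% of all genes had one. Me1, which supplies NADPH, had 60.2 and 23.2 CPM in MycCaP-BMP4 TAMs, against 7.74 and 11.6 CPM in MycCaP TAMs. The carboxylase gene Acaca had 56.5 and 36.1 CPM in MycCaP-BMP4 TAMs, against 20.1 and 22.6 CPM in MycCaP TAMs, and the desaturase gene Scd1 had 51.4 and 26.1 CPM in MycCaP-BMP4 TAMs, against 12.7 and 17.1 CPM in MycCaP TAMs. Scd2, another desaturase gene, had a log2 fold change of 1.23 ± 0.49 (SE), while Acly, the citrate lyase gene, had -0.04 ± 0.29 (SE). As with Sqle, replicate 1 of MycCaP-BMP4 was the highest library in Me1, Acaca, Scd1 and Scd2.

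Genes of LXR and sterol efflux, which remove cholesterol from macrophages, separated downwards in MycCaP-BMP4 TAMs in 8 of 13 cases (29.7% of all genes tested) and upwards in 0 (28.9%) under TMM. Their median log2 fold change was -0.49, and it became 0.58 when scaled on pan-macrophage genes. By edgeR 0 passed, and 0 had an unadjusted p under 0.05, where 19% of all genes did. Abca1, the efflux pump gene, had 130.0 and 517.2 CPM in MycCaP-BMP4 TAMs, against 605.2 and 637.2 CPM in MycCaP TAMs. Apoe, the lipid carrier gene, had 2622 and 10940 CPM in MycCaP-BMP4 TAMs, against 23210 and 16720 CPM in MycCaP TAMs. Arl4c and Ch25h had log2 fold changes of -0.84 ± 0.56 and -1.09 ± 0.64 (SE). The list stood at -1.69 and -0.12 in the MycCaP-BMP4 libraries relative to the MycCaP mean, low in replicate 1 as the pan-macrophage genes were, whose part in this was not tested.

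Lipoprotein uptake and lysosomal genes were mixed, with 1 of 12 higher and 4 lower, where 28.9% and 29.7% of all genes tested were, and a median log2 fold change of -0.07 (0.07 on library size alone and 1.26 scaled on pan-macrophage genes). Lrp8, a lipoprotein receptor gene, had 19.5 and 11.7 CPM in MycCaP-BMP4 TAMs, against 6.34 and 4.94 CPM in MycCaP TAMs. The scavenger receptor gene Msr1, the receptor gene Lrp1 and the endosomal sterol carrier gene Stard3 had log2 fold changes of -0.85, -0.86 and -0.74. In the branches that leave the mevalonate pathway 3 of 14 genes were higher and 3 lower (median 0.08), among them Rabggtb at 0.75 and Dhdds and Pggt1b at -0.43 and -0.47, while Nus1 was at -0.09. Of the genes that process SREBP or sense sterols 4 of 12 were higher and 3 lower (median 0.07), among them Erlin1 at 0.79, Sec23a at 0.54, Sec24c at 0.48 and Sar1a at 0.13, while Mbtps1, the SREBP protease gene, overlapped at 0.73. None of these 3 lists had a gene past the edgeR test, with 2, 0 and 0 genes at an unadjusted p under 0.05, where 19% of all genes had one.

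**Figure D5:**
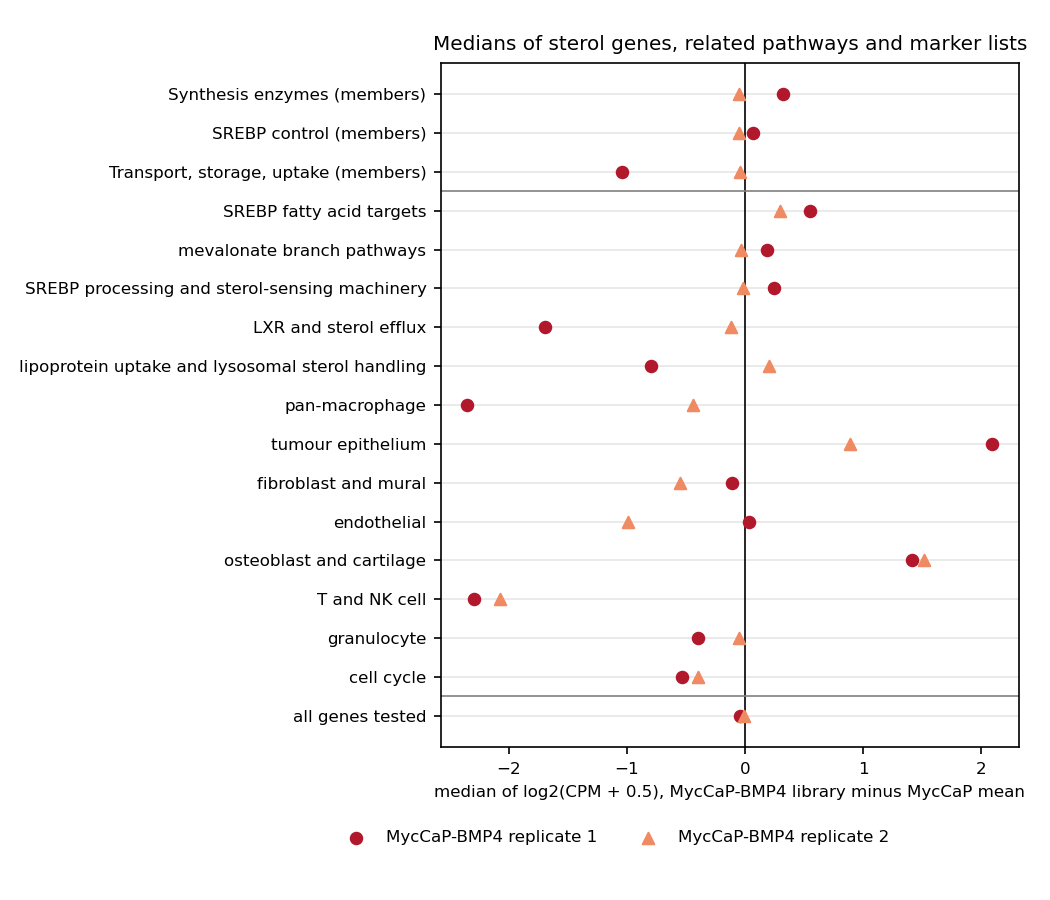
Median over each list of log2(CPM + 0.5) in each MycCaP-BMP4 library minus the MycCaP mean under TMM scaling (red circles replicate 1, orange triangles replicate 2), for the sterol genes, 5 related pathway lists, 8 marker lists and all genes tested. The synthesis enzymes stand at 0.32 and -0.05 and the LXR and efflux list at -1.69 and -0.12, beside pan-macrophage medians of -2.35 and -0.44; scaled on the pan-macrophage genes the fold changes of all 28 sterol genes are positive.

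The remaining marker lists give the makeup of the sort beside these values, as log2 differences of each MycCaP-BMP4 library from the MycCaP mean under TMM. Cell cycle genes stood at -0.53 and -0.40, with 15 of 20 lower and 1 higher in both libraries, where 29.7% and 28.9% of all genes tested were. T and NK cell genes stood at -2.30 and -2.07, with 10 of 12 lower and 0 higher in both libraries. Fibroblast and mural genes stood at -0.11 and -0.55, and endothelial genes at 0.03 and -0.99. Osteoblast and cartilage genes stood at 1.41 and 1.52. Granulocyte genes stood at -0.40 and -0.05, opposite in sign to the median of their fitted fold changes (0.85), and Ly6g and Prg2 had no count in any library. Scaled on pan-macrophage genes the median fold changes of the cell cycle, fibroblast and endothelial lists turned positive. The median log2 fold change of the T and NK cell list stayed negative under that scaling, at -1.33. The part of these lists in the values of the sterol genes was not tested.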

How the data were processed

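Per the submitters' processing notes, the deposited counts are whole-number read counts per gene made with HTSeq by the authors, whose tool list also names STAR 2.6.0b, RSEM and Bowtie2 2.2.3 with the build GRCm38 (mm10). The sources used here do not give the annotation release or the strand setting. Symbols came from a reference table for 37607 of 39179 identifiers, and exon lengths from GENCODE M21. Summary lines at the foot of each file did not enter library sizes (ambiguous reads made up 2.70% to 2.91% of a library, and the report gives the reads outside genes and those aligned to several places by group).

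Counts were filtered with filterByExpr (14075 genes), scaled with TMM and tested with edgeR 4.0.16 (quasi-likelihood F test, two-sided, no covariate, Benjamini-Hochberg over all genes, threshold 0.05) as MycCaP-BMP4 over MycCaP. The same fit was run on simulated counts in which the changed genes were known. CPM values use the TMM factors, and log2 values of single libraries add 0.5 CPM. The SE of a log2 fold change is its size divided by the square root of F. Replicates of a group differed beyond sampling noise (chi-square per degree of freedom 279 in the MycCaP-BMP4 pair and 43.2 in the MycCaP pair).

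The members and lists were chosen with earlier results of these data known. Values in all 4 libraries are given for members with a log2 fold change beyond 1, with groups that do not overlap, or in SREBP control (17 members), and the rest more briefly. From each related pathway list the 3 genes with the smallest p and the 2 with the highest CPM are named. Alternatives were DESeq2 1.42.0 and its size factors, library size alone, scaling on the pan-macrophage genes, other filters, a replicate block, limma-voom (limma 3.58.1) and each library left out.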

Additional observations from a re-analysis of the deposited data

How the results depend on the processing

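The number of genes called was 0 by edgeR, 0 with DESeq2's size factors, with a filter of 1 CPM in 2 libraries and by limma-voom, 65 on library size alone, 1156 when scaled on the pan-macrophage genes, 1109 with no filter on low counts and 1385 by DESeq2. With each library left out it ran from 0 to 5753. Members called were 1 with no filter, 1 by DESeq2, from 0 to 11 with a library left out, and 0 under the other settings. With the replicate number as a block (replicate block) 2 genes and 0 members were called. Deviations of same-numbered libraries correlated at -0.127, so a crossed replicate block was added after the data were seen, and it called 689 genes and 0 members. Scaled on the pan-macrophage genes, members higher in both MycCaP-BMP4 libraries numbered 24, members lower 0, and the median of the members was 1.81. With a library left out these ran from 7 to 15 (where 37.1% to 43.4% of all genes lay higher), from 11 to 14 (where 37.5% to 43.8% lay lower) and from -0.05 to 0.15. Fewer libraries overlap less often by construction.

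Under the pan-macrophage scaling the negative log2 fold changes turned to 1.66 (Acat2), 1.0243 (Dhcr7), 0.75 (Ebp), 1.30 (Hmgcs1), 0.89 (Insig1), 1.34 (Mvk), 0.92 (Mylip), 0.71 (Npc1), 1.14 (Npc2), 1.65 (Pmvk), 0.20 (Soat1), 1.57 (Srebf2) and 0.97 (Tm7sf2). On library size alone Acat2 turned to 0.0843 and Srebf2 to 0.0056. With a library left out the sign changed for Acat2 (-0.19 to 0.0245), Cyp51 (-0.13 to 0.57), Fdft1 (-0.0003 to 0.49), Fdps (-0.35 to 0.60), Msmo1 (-0.0182 to 0.30), Mvd (-0.0565 to 0.32), Npc1 (-1.40 to 0.0073), Pmvk (-0.55 to 0.21), Srebf1 (-0.0505 to 0.0947) and Stard4 (-0.0106 to 0.86). The causes of these changes were not tested, and no other member changed sign. A lone library was assumed to vary like the other group.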
